A study of Mus musculus with 23 samples.

Results

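Genes of colonic goblet cells and their mucus were followed in the colonic epithelium of diet-fed mice, and each was found by its symbol as 1 of the 24917 gene loci of the count table, which gives 10 members: Muc2, Fcgbp, Zg16, Agr2, Tff3, Spink4, Klk1, Atoh1, Gfi1 and Spdef. The 23 samples came from male C57BL/6 mice put on 1 of 3 diets at 6 weeks of age and kept on them for 43 weeks. LF mice received a diet with 10% fat throughout (8 samples), HF mice a diet with 60% fat throughout (6 samples), and HFLF mice the 60% fat diet for 15 weeks and then the 10% fat diet for 28 weeks (9 samples). The epithelium of the entire colon was released with EDTA, so each sample mixes all epithelial cell types and both ends of the colon. Batch 1 held 4 LF, 3 HF and 4 HFLF samples and batch 2 held 4 LF, 3 HF and 5 HFLF samples; the labels do not say what separated the batches or whether they share mice, so the p-values measure the spread between these samples.

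Goblet cells are the secretory cells that build the mucus lying over the colonic epithelium. The gel is a net of the mucin Muc2, which is folded in the endoplasmic reticulum with the help of Agr2, packed into granules and released together with Fcgbp, Zg16, the trefoil peptide Tff3 and other small proteins. Whether a progenitor cell becomes secretory is set by Notch signalling and the transcription factor Atoh1, with Gfi1 and Spdef acting after it in the goblet lineage.

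Promoter sequences were held in RefSeq (GRCm38.p6, the build of the counts, mm10) for 7 of the 10 members; Zg16, Tff3 and Spink4 had no entry. Atoh1 and its partners bind the E-box, whose letters are CANNTG on either strand, and 4 promoters are shown as the 250 bases before the annotated start with each CANNTG in capitals; for Klk1 the RefSeq start lies upstream of the locus start in the count table. Agr2 and Klk1 are shown because both were called higher on the HF diet when the batches were fitted together, and Muc2 and Fcgbp because they make up the gel and were not.
Agr2, chr12:35992675-35992924, + strand: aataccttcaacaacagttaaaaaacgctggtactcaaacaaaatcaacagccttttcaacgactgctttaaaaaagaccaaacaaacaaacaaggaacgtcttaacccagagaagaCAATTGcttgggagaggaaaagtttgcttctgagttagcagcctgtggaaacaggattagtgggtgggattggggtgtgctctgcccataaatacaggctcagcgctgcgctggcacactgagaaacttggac
Klk1, chr7:44225110-44225359, + strand: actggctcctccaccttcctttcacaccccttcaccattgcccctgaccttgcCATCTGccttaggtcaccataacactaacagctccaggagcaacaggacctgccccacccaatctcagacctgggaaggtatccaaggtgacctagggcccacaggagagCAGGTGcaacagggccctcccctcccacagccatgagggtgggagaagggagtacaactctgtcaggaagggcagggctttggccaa
Muc2, chr7:141690090-141690339, + strand: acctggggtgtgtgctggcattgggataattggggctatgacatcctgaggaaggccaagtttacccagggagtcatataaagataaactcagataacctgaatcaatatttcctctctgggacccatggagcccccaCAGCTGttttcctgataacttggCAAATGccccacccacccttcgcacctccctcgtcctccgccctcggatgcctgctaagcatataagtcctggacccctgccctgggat
Fcgbp, chr7:28070986-28071235, + strand: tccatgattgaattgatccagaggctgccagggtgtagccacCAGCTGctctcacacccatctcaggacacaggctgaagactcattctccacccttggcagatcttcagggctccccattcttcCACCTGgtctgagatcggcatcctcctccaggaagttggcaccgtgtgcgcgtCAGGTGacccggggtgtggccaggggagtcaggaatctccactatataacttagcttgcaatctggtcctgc
Of the 32851 promoters in the table, 66.2% hold at least 1 CANNTG in this window, with a median of 1. Agr2 had 1 such match, Klk1 had 2, Muc2 had 2 and Fcgbp had 3, whereas Atoh1 and Spdef had 0. The form CAGCTG, which is a subset of CANNTG and reads the same on both strands, was in 13.0% of all promoters and in those of Muc2 and Fcgbp. A match is a description of the letters and not of a bound site.

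Total counts ran from 29189922 to 46498521 per sample in batch 1 and from 31607019 to 65320947 in batch 2, and the members took 1.81% to 3.26% of them in batch 1 and 2.75% to 4.49% in batch 2. Every member passed the filter on low counts. Levels are given as CPM (reads of a gene relative to all reads of its library, scaled within each batch), and 3 counts in a library were worth at most 0.103 CPM, so even the lowest member value, 6.9 CPM of Gfi1, lay far above that floor. A gene was called higher or lower where edgeR's quasi-likelihood test gave a Benjamini-Hochberg adjusted p below 0.05 and the change exceeded 1.2-fold. HF replicate 3 of batch 1 stood apart for several members and is described where it counts. The labelled tissue was checked by its markers: the defining Paneth cell genes Defa17, Defa21 and Defa24 were at or near 0, with 1.35 to 5.85 CPM over all 5 Paneth markers, while the 7 colonocyte markers summed to 6924 to 14773 CPM.

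Muc2, the gel-forming mucin itself (chr7:141690340-141754694), was not called in any comparison by the test given above with all samples. In batch 1, Muc2 stood at 8641, 10945, 19152 and 13085 CPM in the LF samples and at 12270, 14495 and 10398 CPM in the HF samples. The LF samples enclosed all 3 HF samples, and the log2 fold change of HF over LF was -0.06 (SE 0.24, adjusted p = 0.885). In batch 2, the LF samples held 23599, 19000, 26323 and 18939 CPM and the HF samples 16819, 11953 and 15827 CPM. Here every HF sample lay below every LF sample, at a log2 fold change of -0.56 (SE 0.20), but the adjusted p was 0.0766, short of the threshold. Limma voom with sample weights called Muc2 lower there (log2 -0.54, adjusted p = 0.0491), beside 7.98% of all genes. Without HFLF replicate 3, edgeR called it lower too (-0.56, adjusted p = 0.0486), beside 3.69% of genes. That fit also called it higher in HFLF than in HF (0.52, adjusted p = 0.0381), beside 8.04%. The HFLF samples of batch 2 reached from 12981 to 25528 CPM and overlapped both other diets. Muc2 levels spread widely on 1 diet too: on a scale common to all samples the LF samples reached from 8787 to 19131 CPM in batch 1 and from 18722 to 26023 CPM in batch 2, which overlap.

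The other gel components gave no call either. Fcgbp, a large mucus protein bound into the Muc2 net (chr7:28071236-28120864), was at 8403, 8050, 9165 and 6765 CPM in LF and 6369, 6900 and 3965 CPM in HF of batch 1. In batch 2, its LF samples held 8834, 11259, 10865 and 10630 CPM and its HF samples 8492, 16096 and 11631 CPM. The HF samples therefore lay on opposite sides of LF in the batches, with log2 fold changes of -0.49 (SE 0.18, adjusted p = 0.173) and 0.22 (SE 0.18, adjusted p = 0.423), and 1 library set the size of each. Without HF replicate 3 of batch 1 the first value was -0.28, and over single samples left out the second ran from -0.04 to 0.42. The test of the difference between batches gave 0.71 (SE 0.27) with an adjusted p of 0.707. Zg16, a lectin-like protein of the mucus that binds bacteria (chr7:127050156-127051977), ranged from 1306 to 1693 CPM in LF and from 1263 to 1859 CPM in HF of batch 1, and from 1091 to 2069 CPM in LF and 1907 to 2115 CPM in HF of batch 2. Both groups overlapped in both batches, at log2 fold changes of 0.16 (SE 0.18, adjusted p = 0.594) and 0.30 (SE 0.18, adjusted p = 0.244).

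**Figure D1:**
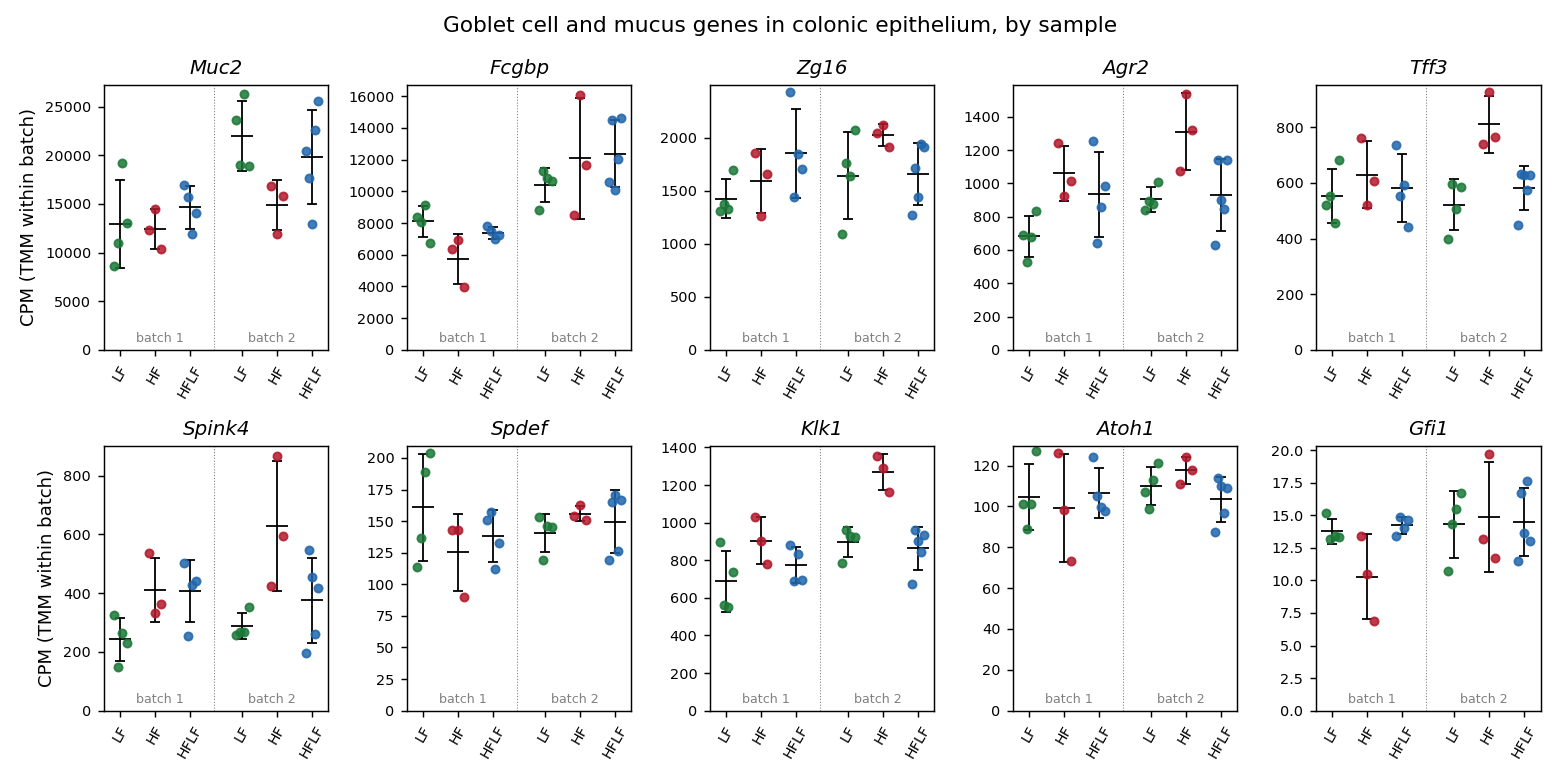
CPM of the 10 members (TMM scaling within each batch, axes from 0) in every sample, by diet and batch; points are samples and bars are the mean ± SD of 3 to 5 samples. In batch 2 the HF points of Agr2, Tff3, Spink4 and Klk1 lie above all LF points and those of Muc2 below them.

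Agr2, Spink4, Tff3 and Klk1 were the members with higher levels on the HF diet. In batch 2, Tff3, Spink4 and Klk1 were called higher in HF than in LF, 3 of 10 members where 3.03% of the 14377 genes tested were called higher, and 0 members were called lower (4.40% of genes). In batch 1, 0 of 10 members were called by edgeR, as were 0% of 14428 genes; 5 members had an unadjusted p under 0.05, beside 22.2% of all genes, and DESeq2 called 1 member (2.06% of all genes called higher) and limma voom with sample weights 3 (8.04%). With both batches in 1 fit and batch as a term, all 4 were called higher (9.00% of 14385 genes) and 0 members lower (9.11%). That fit treats each sample as independent, so its p-values can be too small if the batches share mice. These are RNA levels of a bulk epithelium, in which more goblet cells and more RNA per goblet cell cannot be told apart.

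Spink4, a secreted Kazal-type protease inhibitor of goblet cells (chr4:40920056-40931395), moved most. Its batch 2 levels were 258, 269, 267 and 353 CPM in LF against 425, 866 and 595 CPM in HF. Every HF sample was above every LF sample, 2.19-fold on average (log2 1.13, SE 0.29, adjusted p = 0.0373). In batch 1 the LF samples held 326, 149, 264 and 231 CPM and the HF samples 537, 333 and 364 CPM, again without overlap, at a log2 fold change of 0.76 (SE 0.26) that was not called (adjusted p = 0.168). The fit over both batches gave 0.96 (SE 0.22, adjusted p = 0.00642).

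Agr2, the disulfide isomerase needed to fold Muc2 (chr12:35992925-36004081), kept its HF samples above its LF samples in both batches as well. LF held 690, 530, 675 and 833 CPM and HF 1241, 923 and 1014 CPM in batch 1. In batch 2, LF held 839, 894, 875 and 1011 CPM and HF 1075, 1536 and 1318 CPM. Within a batch the log2 fold changes of 0.64 (SE 0.20, adjusted p = 0.162) and 0.53 (SE 0.17, adjusted p = 0.0586) did not pass, and over both batches 0.58 (SE 0.15, adjusted p = 0.00888) did.

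Tff3, the trefoil peptide secreted with the mucus (chr17:31125306-31129611), separated the diets only in batch 2 of the batches. There LF held 398, 595, 507 and 585 CPM and HF 740, 925 and 763 CPM, a 1.55-fold difference (log2 0.63, SE 0.14, adjusted p = 0.028). In batch 1 the LF range of 454 to 683 CPM and the HF range of 521 to 761 CPM overlapped, at a log2 fold change of 0.19 (SE 0.18, adjusted p = 0.536). The difference between the batches, 0.44 (SE 0.25), had an adjusted p of 0.801, so the batches were not shown to differ.

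Klk1, the tissue kallikrein, a serine protease that releases kinins (chr7:44225437-44229617), was called in batch 2 as well. There, LF held 783, 959, 929 and 922 CPM and HF 1355, 1291 and 1164 CPM. The groups did not overlap and differed 1.41-fold (log2 0.50, SE 0.11, adjusted p = 0.028). In batch 1, LF held 897, 564, 553 and 735 CPM and HF 1030, 902 and 779 CPM, which overlap, at a log2 fold change of 0.39 (SE 0.17, adjusted p = 0.205). Mouse Klk1 has close copies next to it, and how reads that map to several loci were counted is not given in the sources used here; the 13 Klk1b loci of the table held 29 to 116 counts in sum per sample, at most 0.275% of the Klk1 count.

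Counting separation alone, 2 members (Agr2 and Spink4) had HF above LF without overlap in batch 1, where 6.29% of all genes did, and 4 had it in batch 2, where 13.8% did. HF below LF without overlap was seen for 0 members in batch 1 (7.33% of genes) and for Muc2 in batch 2 (13.5%). The median log2 fold change of the 10 members was 0.05 in batch 1 and 0.26 in batch 2, beside -0.00 and -0.01 over all genes tested. None of the 10 loci overlaps another locus of the table on either strand.

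The calls of batch 2 turned on single libraries. Without HF replicate 2, which held the highest Spink4, Agr2, Tff3 and Fcgbp values of its group, 0 members were called and the adjusted p was 0.21 for Spink4 (log2 0.84), 0.17 for Tff3 (0.54) and 0.147 for Klk1 (0.50); of all genes, 0.103% were then called. Leaving out HF replicate 3 or LF replicate 1 or 3 also left 0 calls, with 0.337%, 0.342% and 0.286% of all genes called. Leaving out LF replicate 4 gave 5, beside 17.9% of all genes, with Agr2 higher and Muc2 lower (log2 -0.63, adjusted p = 0.0459) joining the others. The number of calls thus rose and fell over all genes as well. In the fit over both batches each single sample left out kept 3 or 4 calls; the call lost was that of Tff3, without HF replicate 2 of batch 2 (log2 0.35, adjusted p = 0.0591).

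**Figure D2:**
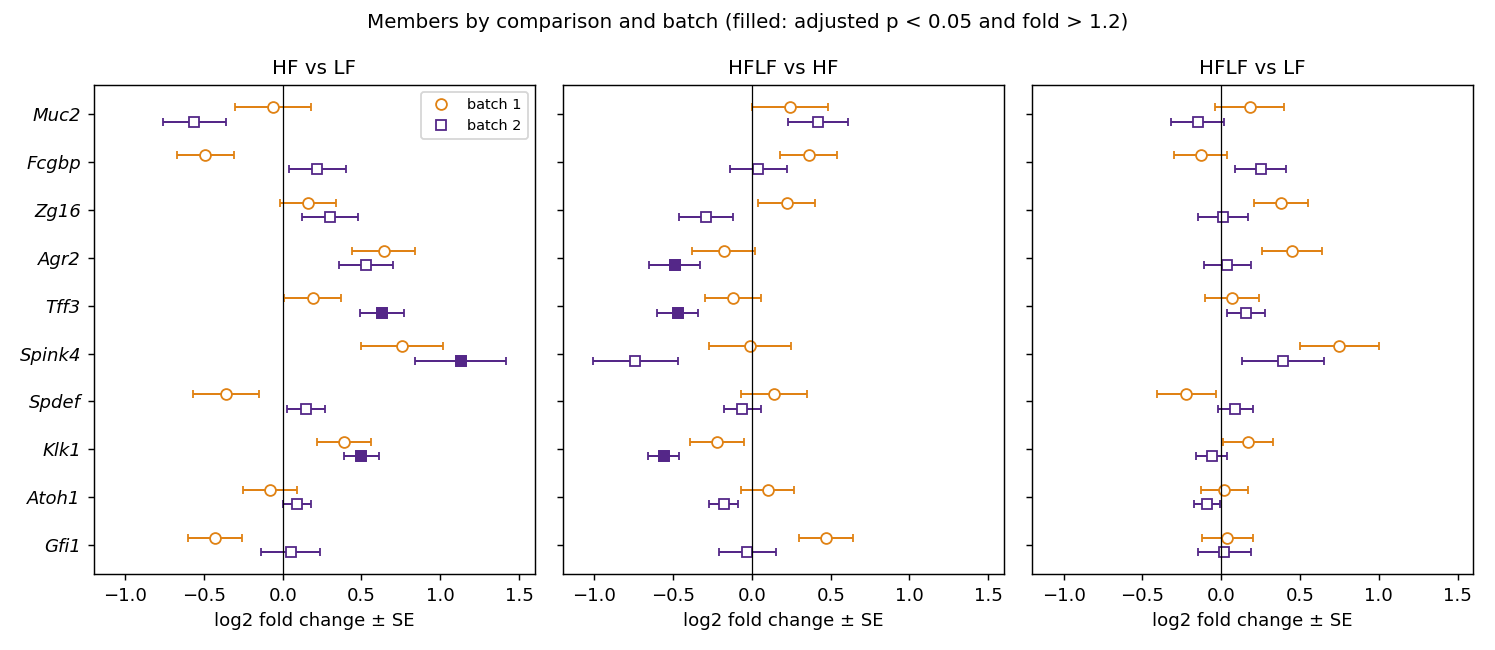
Log2 fold changes with their standard errors for the 10 members in 3 comparisons, in batch 1 (circles) and batch 2 (squares); filled symbols passed the threshold. Filled symbols are seen only in batch 2, for Tff3, Spink4 and Klk1 in HF vs LF and for Agr2, Tff3 and Klk1 in HFLF vs HF.

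The transcription factors of the lineage were not called in any comparison. Atoh1, the factor that commits cells to the secretory lineage (chr6:64729146-64731235), held 101, 88.9, 101 and 127 CPM in LF and 126, 98 and 73.5 CPM in HF of batch 1. In batch 2 it held 107, 98.6, 113 and 121 CPM in LF and 111, 124 and 118 CPM in HF. Its log2 fold changes of HF over LF were -0.08 (SE 0.17) and 0.09 (SE 0.09), and 0.01 (SE 0.10, adjusted p = 0.934) over both batches. Spdef, the ETS factor of goblet cell maturation (chr17:27714447-27728951), was at 114 to 204 CPM in LF and 90.1 to 143 CPM in HF of batch 1, and at 119 to 153 CPM in LF and 151 to 163 CPM in HF of batch 2, with log2 fold changes of -0.36 (SE 0.21, adjusted p = 0.31) and 0.15 (SE 0.12, adjusted p = 0.385). Gfi1, a zinc finger repressor that acts after Atoh1 (chr5:107716655-107725805), was the lowest member. It held 15.2, 13.2, 13.4 and 13.3 CPM in LF and 13.4, 10.5 and 6.9 CPM in HF of batch 1, a log2 fold change of -0.43 (SE 0.17, adjusted p = 0.189) that became -0.20 without HF replicate 3. In batch 2 its log2 fold change was 0.05 (SE 0.19, adjusted p = 0.885).

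HF replicate 3 of batch 1 held the lowest value of its group for Muc2, Fcgbp, Spdef, Klk1, Atoh1 and Gfi1. Its Spink4, Agr2 and Tff3 values lay inside their groups. Leaving it out, 0 members were called in batch 1 and 4 over both batches, as with it.

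After the change of diet, the comparison of HFLF with HF asks whether the members move when the high fat diet ends; it shares the HF samples with the comparison above. In batch 2, Agr2, Tff3 and Klk1 were called lower in HFLF than in HF, 3 of 10 members where 5.61% of genes were called lower, and 0 members were called higher (8.89%). Klk1 held 676, 962, 900, 844 and 934 CPM in HFLF, all under the lowest HF sample (log2 -0.56, SE 0.10, adjusted p = 0.0127). Tff3 held 449, 633, 627, 574 and 629 CPM, likewise under all HF samples (log2 -0.47, SE 0.13, adjusted p = 0.0292). Without overlap, 2 of the 10 members were thus lower, beside 12.4% of genes, and 0 higher, beside 14.6%. Agr2 held 629, 1139, 901, 845 and 1140 CPM, which overlap the HF samples by 2 samples (log2 -0.49, SE 0.16, adjusted p = 0.0456). Spink4 ranged from 196 to 546 CPM in HFLF and was not called (log2 -0.74, SE 0.27, adjusted p = 0.0656). Muc2 was at a log2 fold change of 0.42 (SE 0.19, adjusted p = 0.122).

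Batch 1 gave no such calls. The number of members called in HFLF vs HF there was 0, beside 0.00693% of genes called higher and 0% lower, and 1 member had an unadjusted p under 0.05, beside 10.9% of genes. DESeq2 and limma voom with sample weights called 0 as well. Spink4 was at 504, 255, 428 and 442 CPM in HFLF of batch 1, close to its HF samples (log2 -0.01, SE 0.26), and Klk1 was at 880, 690, 832 and 695 CPM (log2 -0.22, SE 0.17, adjusted p = 0.612). Fcgbp and Gfi1 had HFLF samples above all HF samples, as 3.95% of genes did, with log2 fold changes of 0.36 (SE 0.18, adjusted p = 0.474) and 0.47 (SE 0.17, adjusted p = 0.412); 0 members were below HF without overlap (4.07% of genes). Over both batches Klk1 was the single member called (log2 -0.40, SE 0.11, adjusted p = 0.0204), beside 4.90% of genes called lower and 5.44% higher.

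These calls also rested on single libraries. Without HF replicate 2 of batch 2 no member was called in batch 2 (0.0757% of genes called) or over both batches (3.76%). The batch 2 values were then -0.56 for Klk1 (adjusted p = 0.0792), -0.38 for Tff3 (0.17) and -0.38 for Agr2 (0.229). Leaving out HF replicate 3 or HFLF replicate 1 or 4 of batch 2 left 1 call, beside 4.71%, 6.13% and 6.66% of genes. Over both batches, leaving out HFLF replicate 1 of batch 1 gave 3 calls (14.8% of genes) and HF replicate 2 of batch 1 gave 2 (18.5%).

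Between HFLF and LF, the mice that ended on the same diet, 0 members were called in batch 1, batch 2 or both batches; the shares of genes called were 0% in batch 1, 0.00696% in batch 2 and 0% over both. At an unadjusted p under 0.05 there were 3 members in batch 1 (5.29% of genes), 0 in batch 2 (4.65%) and 1 over both batches (4.11%), and DESeq2 and limma voom with sample weights called 0 members in each. Spink4 had the largest value, 0.57 over both batches (SE 0.20, adjusted p = 0.98), from 0.75 (SE 0.25) in batch 1 and 0.39 (SE 0.26) in batch 2. Its samples on the 2 diets overlapped in both batches, as did those of the other members; 2.41% of all genes did not overlap in batch 1 and 1.29% in batch 2. The remaining members lay between -0.06 and 0.24 over both batches. A p that misses the threshold does not show that HFLF and LF were alike, and the standard errors of 0.09 to 0.20 set what these samples could resolve.

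The effects of diet were not shown to differ between the batches for any member: of the 30 tests of a difference, 0 were called, as were 0% of genes in each comparison. By unadjusted p under 0.05, 1 member passed for HF vs LF (Fcgbp; 6.56% of genes), 0 for HFLF vs HF (7.68%) and 0 for HFLF vs LF (7.58%); DESeq2 called 0.

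The members that rose are short transcripts, and transcript length moved with diet over all genes. Exon length, from the GENCODE basic annotation, could be assigned to 94.8% of the genes tested in batch 1 and 94.9% in batch 2. In batch 2 the median log2 fold change of HF over LF was 0.14 among the shortest genes (up to 1837 bases, 1 of 5 equal bins by exon length) and -0.15 among the longest (from 5484 bases), and in batch 1 it was 0.13 and -0.06. Among genes under 1000 bases, 77.6% were higher in HF in batch 2 and 74.0% in batch 1. Spink4 has 397 exon bases, Tff3 493, Zg16 682, Agr2 784 and Klk1 954, while Spdef has 1923, Atoh1 2121, Gfi1 3105 and Fcgbp 7932; for Muc2 the annotation holds separate partial transcripts that are not tied to its gene number, and no length was used. For HFLF against HF in batch 2 the trend ran the other way, from -0.16 in the bin of shortest genes to 0.17 in that of the longest. The part of length in these results was examined in 1 way, by removing the trend of each library on exon length, which was chosen after the data were seen.

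With the length trend removed, Spink4 (log2 0.85, SE 0.21, adjusted p = 0.0326), Tff3 (0.38, adjusted p = 0.0347) and Klk1 (0.32, adjusted p = 0.0356) were still called higher in HF than in LF in batch 2, where 2.84% of genes were. Over both batches Spink4 was at 0.65 (adjusted p = 0.0114), Agr2 at 0.37 (0.0215) and Klk1 at 0.28 (0.0147), each called, beside 7.31% of genes; Tff3, at 0.13 (0.325), was not. Batch 1 values of Tff3 and Zg16 turned to -0.13 and -0.11. For HFLF vs HF in batch 2 the calls of Agr2 (-0.26, adjusted p = 0.13) and Tff3 (-0.16, adjusted p = 0.228) were lost and that of Klk1 (-0.36, adjusted p = 0.0174) stayed, beside 3.98% of genes called lower. Over both batches Klk1 was at -0.25 with an adjusted p of 0.0388 and a fold change under 1.2, so that 0 members were called (3.69% of genes).

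**Figure D3:**
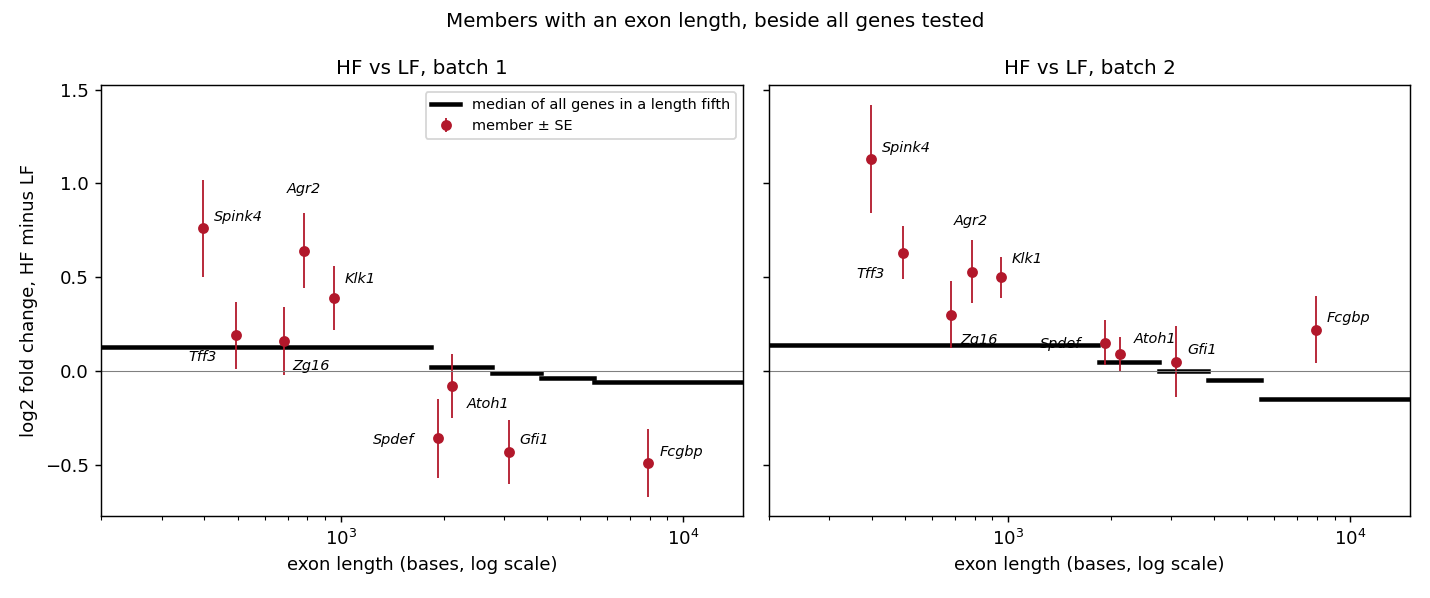
Log2 fold change of HF over LF (points, ± SE) against exon length on a log axis for the 9 members with a length, in batch 1 and batch 2; black bars are medians of all genes tested in 5 equal bins of exon length, the outer bins cut at the ends of the axis. The members under 1000 bases lie above 0 in both batches, as do the bars of the shortest genes, and Spink4 in batch 2 lies farthest above its bar.

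Among the members, levels were compared per kilobase of exon, since a longer transcript gives more reads. In the LF samples of batch 2, Zg16 was highest, at 1600 to 3033 CPM per kb, above all samples of Fcgbp at 1114 to 1419 CPM per kb. Agr2 (1070 to 1289), Tff3 (808 to 1206), Klk1 (821 to 1005) and Spink4 (649 to 889) followed, and each of these overlapped its neighbour in this order. Spdef (61.9 to 79.4) lay above Atoh1 (46.5 to 57.1) without overlap, and Gfi1 was lowest, at 3.44 to 5.37 CPM per kb. Every secreted product therefore stood above every transcription factor. Muc2 has no place in this order for want of a length.

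Reads of Agr2, Spink4, Tff3 and Klk1 were also set against reads of Muc2 in the same library, which needs no scaling between libraries. In batch 2 there were 33.2, 41.3 and 53.4 Agr2 reads per 1000 Muc2 reads (lowest, median and highest) in LF and 63.9, 83.3 and 128 in HF. Spink4 gave 10.1, 12.5 and 18.6 in LF and 25.3, 37.6 and 72.5 in HF of that batch. Both ratios, and those of Tff3 (16.9 to 31.3 against 44 to 77.4) and Klk1 (33.2 to 50.5 against 73.5 to 108), had no overlap between the diets. That was fixed by the CPM values above, where these 4 lay higher in HF and Muc2 lower, each without overlap. The separation of the ratios in batch 2 is therefore no further support. In batch 1 the ranges of LF and HF overlapped for all 4, with 35.2 to 79.9 against 63.7 to 101 for Agr2 and 13.7 to 37.8 against 23 to 43.8 for Spink4. The ratio of Zg16, which was not called, also had no overlap in batch 2, at 46.3 to 109 in LF and 121 to 177 in HF. That of Fcgbp overlapped there, at 374 to 593 in LF and 505 to 1347 in HF. A separated ratio was thus not particular to the members called higher. A changed ratio shows that the 2 transcripts moved unequally, not which of them moved. The exon length trend was not removed from these ratios, and Muc2 had no length to use.

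Samples of one diet and batch still differed, and the members did not all vary together. Correlations were taken over 23 samples after removing the mean of each diet and batch from log2 CPM, and the points share library depth and the length trend. Agr2 went most closely with Spink4 (Pearson r 0.86), Zg16 with Tff3 (0.79), and Atoh1 with Spdef (0.75) and Agr2 (0.67). Muc2 was little tied to the rest, from -0.31 with Spink4 and Klk1 to 0.43 with Spdef. Fcgbp went with Gfi1 (0.67), where HF replicate 3 of batch 1 was lowest in both.

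**Figure D4:**
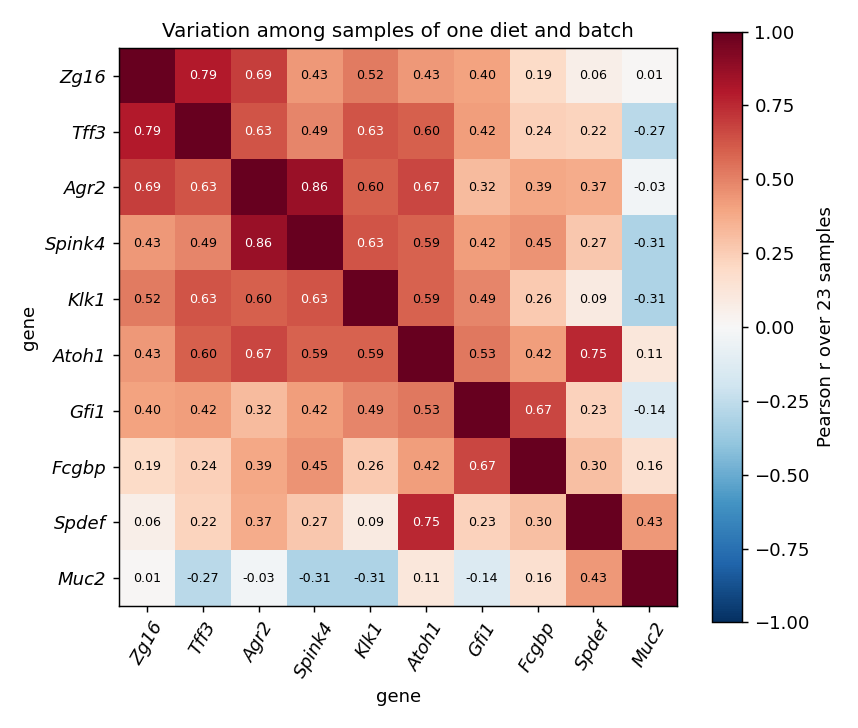
Pearson r between members over 23 samples, from log2 CPM less the mean of each diet and batch; red is positive and blue negative, and the diagonal is 1. The short secreted products Zg16, Tff3, Agr2, Spink4 and Klk1 form a red block with r from 0.43 to 0.86, while the Muc2 row lies between -0.31 and 0.43.

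Outside the members, the genes whose variation was most like that of Muc2, among 10508 with a mean of at least 5 CPM, were Apeh (r 0.94), D10Bwg1379e (0.92), Hspg2 (0.91), Pcdhgc3 (0.90) and Gbf1 (0.89). Klk1 was most like H3f3b (0.91), Tspan6 (0.91), Lamtor2 (0.90), Arl6ip5 (0.89) and Hcfc1r1 (0.87). No known goblet product is among these 10 genes, and their exons run from 2518 to 14579 bases for Muc2 and from 734 to 2514 for Klk1.

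Around the members, 7 lists of genes were followed: other mucins, other secreted goblet products, folding and stress of the endoplasmic reticulum, mucin O-glycosylation, granule and mucus release, secretory fate and Notch, and relatives of Klk1. In batch 1, 0 genes of any list were called in HF vs LF or HFLF vs HF, and in HFLF vs LF 0 genes were called in either batch. Batch 2 gave calls in every list, described next. Of all genes in batch 2, 3.03% were called higher and 4.40% lower in HF vs LF. In HFLF vs HF these shares were 8.89% and 5.61%.

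Among the other secreted products, 22 genes had a row and 19 were tested. Reg4, Retnlb, Ang4 and Sval1 were called higher in HF of batch 2, where 3.03% of all genes were, and 0 lower (4.40%). The list median was 0.16 beside -0.01 over all genes. Reg4, a secreted lectin, ran from 147 to 219 CPM in LF and from 359 to 1044 CPM in HF (log2 1.82, SE 0.39, adjusted p = 0.0272). Retnlb, a resistin-like goblet protein, ran from 23 to 31.9 CPM in LF and from 55.7 to 556 CPM in HF (log2 3.14, SE 0.82, adjusted p = 0.0382). The groups of Reg4 and Retnlb did not overlap. Ang4, an antimicrobial angiogenin, ran from 14.6 to 43.6 CPM in LF and from 41.4 to 1048 CPM in HF (log2 3.73, SE 1.02, adjusted p = 0.0417), so its lowest HF sample lay within the LF range. In batch 1 Ang4 was at -1.13 (SE 0.86) and Retnlb at -0.12 (SE 0.66), on the other side of 0, whereas Reg4 was at 0.88 (SE 0.27, adjusted p = 0.16). For HFLF vs HF in batch 2, Reg4 (-1.35, SE 0.37, adjusted p = 0.0261) and Sval1 (-0.60, SE 0.17, adjusted p = 0.0307) were called lower, beside 5.61% of all genes. With the length trend removed Sval1 was called in neither comparison, and the other calls stayed.

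Of 17 genes of folding and stress, Pdia6, Pdia4 and Hspa5 were called higher in HF in batch 2 (3.03% of all genes). Ern2 was called lower (4.40%), and the list median was 0.26. Pdia6, a disulfide isomerase as Agr2 is, ran from 142 to 159 CPM in LF and from 169 to 235 CPM in HF (log2 0.47, SE 0.11, adjusted p = 0.0293). Hspa5, the main chaperone of the endoplasmic reticulum, was at 464 to 550 CPM in LF and 577 to 748 CPM in HF (log2 0.42, SE 0.10, adjusted p = 0.0317). Neither gene had overlapping groups. Ern2, the stress sensor found in goblet cells, was at 194 to 258 CPM in LF and 168 to 198 CPM in HF (log2 -0.34, SE 0.09, adjusted p = 0.0425), and its groups overlapped. In HFLF vs HF 6 genes were called lower (5.61% of all genes), with Pdia6 at -0.39 (adjusted p = 0.022) and Selm at -0.40 (adjusted p = 0.0394). Another 2 were called higher (8.89%), with Ern2 at 0.42 (adjusted p = 0.0144). The list median was -0.17. With the length trend removed the 4 genes called in HF vs LF were the same, and 3 lower and 1 higher were left in HFLF vs HF.

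Of the mucin glycosyltransferases 29 were tested, and Galnt1, Galnt3 and St3gal4 were called higher in HF in batch 2 (3.03% of all genes). The number called lower was 0 (4.40%), and the list median was 0.10. Galnt1 and Galnt3 add the first sugar of an O-glycan, and St3gal4 adds sialic acid. Galnt1 was at 82.2 to 93.2 CPM in LF and 99.8 to 118 CPM in HF (log2 0.30, SE 0.07, adjusted p = 0.031), and Galnt3 at 69.8 to 81.7 against 83.1 to 95.7 CPM (log2 0.28, SE 0.08, adjusted p = 0.0428). Those 2 genes, with 4293 and 3885 exon bases, are not short; both were called again with the length trend removed, and St3gal4 was not. Galnt1 was called lower in HFLF than in HF (log2 -0.26, SE 0.07, adjusted p = 0.0222), beside 5.61% of all genes. With the length trend removed 5 genes were called lower there (3.98% of all genes), C1galt1, Galnt1, Galnt3, Galnt4 and Gcnt4.

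Of 20 genes of granule and mucus release, Ramp1, a subunit of the CGRP receptor, was called higher in HF in batch 2 (log2 0.43, SE 0.12, adjusted p = 0.0466). The number called lower was 0, beside 3.03% of all genes higher and 4.40% lower. Ramp1 was at 54.6 to 66.5 CPM in LF and 71.3 to 87 CPM in HF, without overlap. In HFLF vs HF, Ramp1 (-0.37, adjusted p = 0.0409) and the goblet cell channel Best2 (-0.69, SE 0.20, adjusted p = 0.0343) were called lower and Mlph (0.31, SE 0.08, adjusted p = 0.0224), which links granules to the cytoskeleton, higher; with the length trend removed, of these Ramp1 alone was called.

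Of 23 genes of secretory fate and Notch tested, 5 were called lower in HF of batch 2, where 4.40% of all genes were, and 0 higher (3.03%). The 5 were Notch1, Dll1, Cbfa2t3, Sox4 and Sox9, and the list median was -0.12. Notch1, a receptor, was at 101 to 139 CPM in LF and 77.6 to 93.8 CPM in HF (log2 -0.52, SE 0.10, adjusted p = 0.0242). The ligand Dll1 (log2 -0.38, SE 0.11, adjusted p = 0.0462) and the corepressor Cbfa2t3 (-0.58, SE 0.12, adjusted p = 0.0259) were also called. Batch 1 values were -0.52 (SE 0.22) for Notch1, -0.75 (SE 0.24) for Dll1 and -0.62 (SE 0.25) for Cbfa2t3, none of them called. Notch1, Notch2 and Cbfa2t3 were called higher in HFLF than in HF in batch 2, at 0.49 (SE 0.10), 0.42 (SE 0.11) and 0.67 (SE 0.12); Notch2 was not called there with the length trend removed. Notch1 has 9488 and Cbfa2t3 7959 exon bases, in the bin of genes whose median was lower in HF. Both calls of HF vs LF in batch 2 remained with the length trend removed, as did those of Dll1 and Sox9. That of Sox4 was lost, while Hes1 and Klf4 were then called lower.

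Few other mucins and kallikreins passed the filter on low counts. Of 9 other mucin genes with a row, 5 were tested in batch 2, and the membrane mucin Muc4 was called lower in HF (188 to 268 CPM in LF, 110 to 167 in HF; log2 -0.66, SE 0.18, adjusted p = 0.0403) and higher in HFLF than in HF (0.58, SE 0.17, adjusted p = 0.0318), the latter not with the length trend removed. Of 15 relatives of Klk1, 4 were tested in batch 2, and Klk15 was called higher in HF (2.51 to 5.66 CPM in LF, 7.33 to 9.66 in HF; log2 1.01, SE 0.23, adjusted p = 0.0307) and lower in HFLF than in HF (-0.89, SE 0.22, adjusted p = 0.0202). With both batches in 1 fit, genes called higher and lower in HF vs LF numbered 3 and 0 among other secreted products, 5 and 1 in folding, 4 and 2 in glycosylation, 2 and 0 in release, 0 and 7 in fate and Notch, 0 and 1 among mucins and 1 and 0 among Klk1 relatives. Of all genes in that fit, 9.00% were called higher and 9.11% lower.

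**Figure D5:**
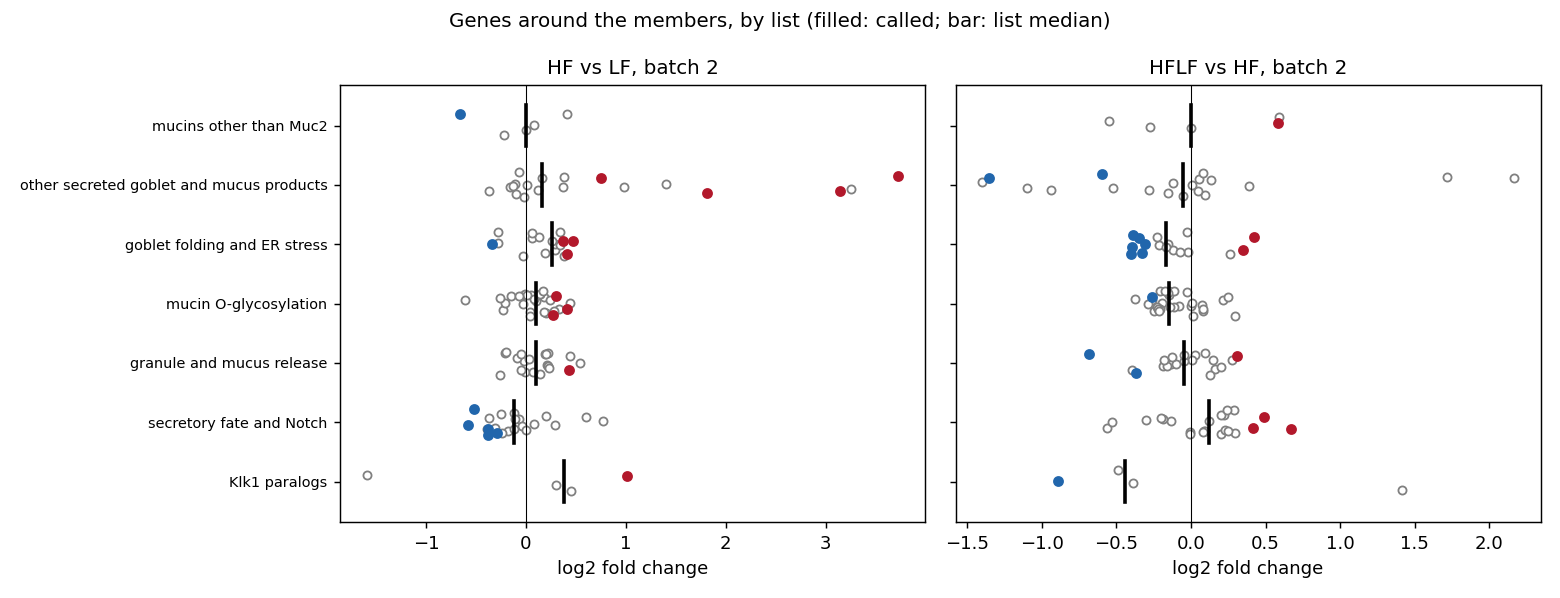
Log2 fold changes in batch 2 of the genes tested in 7 lists around the members, HF vs LF on the left and HFLF vs HF on the right (the scales differ); each circle is a gene, filled red if called higher and blue if called lower, and black bars are list medians. Filled circles of the secreted and folding lists lie mostly to the right of 0 for HF vs LF, and those of the fate and Notch list to the left.

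Summed markers of other cells moved beside these results. The 6 enteroendocrine markers, of the other main secretory cell, summed to 270 to 366 CPM in LF of batch 2. There HF held 396 to 407 CPM and HFLF 270 to 359 CPM, so HF stood above both other diets without overlap. In batch 1 the enteroendocrine sums were 156 to 230 CPM in LF and 202 to 278 CPM in HF, which overlap. Chgb, Gcg, Pyy and Insl5 had higher medians in HF than in LF in both batches. Chga had lower medians in HF, at 67.8 against 83.1 CPM in batch 1 and 113 against 116 CPM in batch 2. So did Neurod1, at 2.64 against 2.89 CPM and 3.67 against 3.75 CPM. The 5 smooth muscle markers summed to 5.33 to 28.4 CPM in LF and 0.702 to 4.2 CPM in HF of batch 2. The 5 Paneth markers, of which Lyz1 and Mmp7 alone had a median above 0, summed to 2.73 to 5.85 CPM in HF and 1.64 to 2.23 CPM in LF of batch 1. In batch 2 the sum was 2.79 to 4.99 CPM in HF, 1.95 to 2.48 CPM in LF and 1.52 to 2.78 CPM in HFLF. The HF sum lay above LF without overlap in both batches. Lyz1 alone carried this, with medians of 3.45 CPM in HF against 0.744 in LF of batch 1, and 1.65 against 0.64 in batch 2. Mmp7 had medians of 0.949 against 0.987 and 1.43 against 1.39. The sum of the 4 macrophage markers lay above LF in batch 1 too, at 27.7 to 34.3 CPM in HF and 21.9 to 27.3 CPM in LF. Most of it was Cd14, with medians of 25.2 CPM in HF and 21.4 CPM in LF. The other macrophage markers had lower medians in HF: Cd68 (1.75 against 2.25), Csf1r (0.604 against 1.07) and Emr1 (0.108 against 0.294). The 7 goblet markers were all members, and their sums were mostly Muc2 and Fcgbp. These sums were 33730 to 40619 CPM in LF and 29750 to 33653 CPM in HF of batch 2, again without overlap. Muc2 alone had a lower median in HF there, at 15827 against 21300 CPM. Every other goblet marker had a higher one, with Fcgbp at 11631 against 10747 CPM. In batch 1 the goblet sums overlapped, at 20002 to 31224 CPM in LF and 18093 to 24579 CPM in HF. Depth moved too: HF samples included the deepest library, at 65320947 counts. The part of these shifts in the members' differences was not tested.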

How the data were processed

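Colonic epithelial total RNA was sequenced as ribosomal RNA-depleted, stranded, paired-end libraries. The deposited counts are whole reads per gene locus in 1 table of 23 samples; per the labels, the authors trimmed reads with cutadapt 1.2.1, aligned them to mm10 with STAR 2.5 and counted them with featureCounts 1.5.0-p1. The table was tested as deposited with edgeR 4.0.16 in R 4.3.3 (TMM scaling, filterByExpr by diet with a minimum count of 10, quasi-likelihood F test, Benjamini-Hochberg adjustment over all genes tested), with the 3 diets in 1 fit per batch, a fit of both batches with batch as a covariate, and a batch by diet interaction. Genes were called at adjusted p under 0.05 and fold above 1.2. DESeq2 1.42.0, limma 3.58.1 (voom with sample quality weights), RLE factors, no filter, no fold minimum, a replicate block and leaving out each sample were alternatives; removal of the exon length trend of each library (lowess, span 0.3) was added after seeing the data. Named list genes were the up to 4 per list with the largest change among those called within a batch; members and lists were chosen with earlier results of these data known.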

Additional observations from a re-analysis of the deposited data

Results flagged for a closer look

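In 40 sets of 4 or 5 samples, 1 for each member in each LF or HFLF group of a batch, 3 samples lay farther from the rest than Dixon's 95% limit allows, where chance alone gives about 1 in 20. All were the highest value of an LF group. Zg16 reached 1693 CPM in LF replicate 4 of batch 1 beside 1306 to 1370 CPM in the others. Spink4 reached 353 CPM in LF replicate 4 of batch 2 beside 258 to 269 CPM in the others, which is still below the lowest HF sample of that batch. Gfi1 reached 15.2 CPM in LF replicate 1 of batch 1 beside 13.2 to 13.4 CPM in the others. HF groups of 3 samples could not be checked in this way.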

How the results depend on the processing

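Of 345 member values under the 7 alternatives that kept all samples, for HF vs LF in each batch and over both and for HFLF vs HF in batch 2 and over both, 314 kept their direction and their side of the threshold, 14 passed it only in the alternative, 4 lost it and 13 changed sign, each from a value that was not called. Members called in HF vs LF of batch 1 numbered 1 by DESeq2, 3 by limma voom and 1 with the replicate block (0.208% of all genes higher), beside 0; in batch 2 they numbered 5 by limma voom (4 higher, 1 lower; 5.87% and 7.98% of genes) and 5 with the replicate block (all higher; 6.20%), beside 3. For HFLF vs HF they numbered 5 with the replicate block (all lower; 8.74% of genes) and 1 with the length trend removed, beside 3, in batch 2, and 2 by limma voom (3.98%), 2 with the block (5.53%) and 0 with the length trend removed, beside 1, over both batches. The cause was not tested. Leaving out single samples, the number called in batch 2 ran from 0 to 5 for HF vs LF and 0 to 4 for HFLF vs HF. The shares of all genes called ran from 0.103% to 17.9% and from 0.0757% to 19.3%. For HFLF vs HF over both batches the number ran from 0 to 3, beside 3.47% to 18.5% of genes. Limma voom turned Muc2 (0.07) and Atoh1 (0.20) in HF vs LF of batch 1, Gfi1 (-0.12) in batch 2, Spdef (0.05) over both, Gfi1 (0.11) in HFLF vs HF of batch 2 and Spdef (-0.01) in HFLF vs HF over both. Removal of the length trend turned Zg16 (-0.11) and Tff3 (-0.13) in batch 1 and Atoh1 (-0.03) over both batches in HF vs LF, and Fcgbp (-0.14) and Spdef (0.02) in HFLF vs HF of batch 2, where the replicate block gave Fcgbp -0.01, and Zg16 (0.17) in HFLF vs HF over both.

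Leaving out single samples crossed 0 for Muc2 from -0.21 to 0.18 (HF vs LF, batch 1), Fcgbp from -0.04 to 0.42 (HF vs LF, batch 2), Fcgbp from -0.28 to 0.00 (HF vs LF, both batches), Fcgbp from -0.16 to 0.28 (HFLF vs HF, batch 2), Spdef from -0.14 to 0.02 (HF vs LF, both batches), Spdef from -0.13 to 0.01 (HFLF vs HF, batch 2), Spdef from -0.08 to 0.08 (HFLF vs HF, both batches), Atoh1 from -0.29 to 0.11 (HF vs LF, batch 1), Atoh1 from -0.05 to 0.12 (HF vs LF, both batches), Atoh1 from -0.15 to 0.01 (HFLF vs HF, both batches), Gfi1 from -0.20 to 0.20 (HF vs LF, batch 2) and Gfi1 from -0.18 to 0.21 (HFLF vs HF, batch 2). The replicate numbers were not shown to pair the samples. Same-numbered LF and HF samples deviated together by correlations of -0.15 to 0.37 in batch 1 and 0.09 to 0.21 in batch 2. For HF and HFLF samples these were 0.09 to 0.56 and -0.14 to 0.59, and for LF and HFLF samples -0.59 to 0.50 and -0.12 to 0.32. With 3 or 4 pairs each, these values cannot settle a pairing, so the block calls are given here alone. With 3 HF samples per batch, the edgeR test of HF vs LF gave Agr2 an adjusted p of 0.162 in batch 1 (log2 0.64) and 0.0586 in batch 2 (0.53). Klk1, with a smaller change in batch 2 (0.50, adjusted p = 0.028), was called, so size alone did not set the calls.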
